A study of Mus musculus with 9 samples.

Results

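Hearts of mice given Lingguizhugan decoction were compared with hearts of mice given distilled water, whatever operation the water mice had undergone. All 9 libraries of the study entered this comparison and were chosen by the treatment in their labels: 3 decoction libraries against 6 water libraries. The decoction group (LD1 to LD3) consisted of mice that had the operation called TAC, usually read as transverse aortic constriction, and then received the decoction. The water group combined 3 sham-operated mice (Sham1 to Sham3) and 3 TAC mice (TAC1 to TAC3), all given distilled water. All mice were male C57BL/6J with no transgene named, aged 18 to 20 weeks, and whole heart tissue was sampled. Lingguizhugan decoction is a Chinese herbal preparation of Poria, cinnamon twig, Atractylodes and licorice. The dose, the length of treatment, the litter and the hour of tissue collection are not stated in the labels. No sham-operated mice received the decoction, so a difference between LD and sham hearts holds the operation as well as the decoction, and each gene is therefore given against TAC and against sham hearts too. Of 21989 genes in the deposited table, 11380 reached an FPKM (fragments relative to the length of the gene and to the depth of the library) of 1 in 3 or more libraries and were compared.

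Constriction of the aorta loads the left ventricle with pressure, and heart muscle under such load is known to make more of the natriuretic peptides, skeletal actin, beta-myosin heavy chain and matrix proteins. The circadian clock, the other system that recurs below, is a loop in which the factors CLOCK and BMAL1 activate the genes of their own repressors (the PER, CRY and REV-ERB proteins) and output factors such as DBP. In the heart this loop runs in the muscle cells themselves and sets daily rhythms of metabolic and contractile genes.

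LD1 to LD3 held 7.41, 18.04 and 16.03 M recovered fragments, and the water libraries between 8.39 and 18.1 M. All 14 cardiomyocyte markers were detected, with a summed level of 61844 to 110740 scaled FPKM in LD and 44055 to 68387 in water, while 10 of 12 lung and thymus markers were at 0 in every library. A pair of libraries stood apart on the first principal component (28.2% of the variance), LD3 at 44.4 and TAC3 at -50.7, with the other 7 between -8.61 and 17.5. The libraries were also of 2 kinds in their low counts. Among genes with 11 to 100 recovered fragments, an odd number of fragments was found for 47.4% to 53.8% of genes in LD1, LD2, LD3, Sham2 and TAC1, and for 8.84% to 10.5% in Sham1, Sham3, TAC2 and TAC3. Since no LD library belonged to the second kind, values are also given with this kind as a term in the fit. In that fit the difference between LD and water rests on Sham2 and TAC1, the water libraries of the first kind. The 3793 genes of shortest recovered length had a median log2 difference of 0.13 between LD and water, the 3794 longest one of -0.08. In whole tissue, fewer cells of a type and less RNA per cell cannot be told apart.

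No gene passed an adjusted p of 0.05 between LD and water hearts in limma's moderated test (Benjamini-Hochberg over 11380 genes, 0% called, smallest adjusted p 0.134). The log2 differences used throughout are those of mean log2(scaled FPKM + 1), where scaled means divided by a median-of-ratios size factor. At an unadjusted p under 0.05, 419 genes were higher in LD (3.68% of those tested) and 423 were lower (3.72%). Limma's voom on recovered fragments also called 0 genes, whereas weighting each library by its estimated quality called 16, of which 9 were higher and 7 lower in LD. That weighting set LD2 at 4.09, LD3 at 0.415 and TAC3 at 0.416. Against TAC hearts alone and against sham hearts alone the counts past the adjusted threshold were also 0, with 970 (8.52%) and 581 (5.11%) genes at an unadjusted p under 0.05; these comparisons share the LD libraries.

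What set the decoction hearts apart was therefore looked for among genes without overlap between the groups. All 3 LD libraries lay above all 6 water libraries for 182 genes (1.6%) and below all 6 for 189 genes (1.66%). Some genes separate in this way under any grouping of 3 against 6 libraries, and how many was not tested. The median log2 difference was 0.58 in the former and -0.59 in the latter, and 12 genes in each direction differed by more than 1. The balance depended on the scaling: 97 genes lay above and 287 below with FPKM as deposited, and 54 above and 346 below after rescaling to equal sums. Those scalings moved the median of all genes from 0.00 to -0.10 and -0.18, and 89 and 45 of the 182 higher genes were shared with them. The 24 genes described below, 12 in each direction, are those of smallest p without overlap. Their adjusted p lay between 0.134 and 0.549, so none passed. Some overlapped under another scaling: Cyp26b1, Lcn2 and Myh7 with FPKM as deposited and at equal sums, Misp at equal sums, and Myh7 also after quantile normalization.

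**Figure D1:**
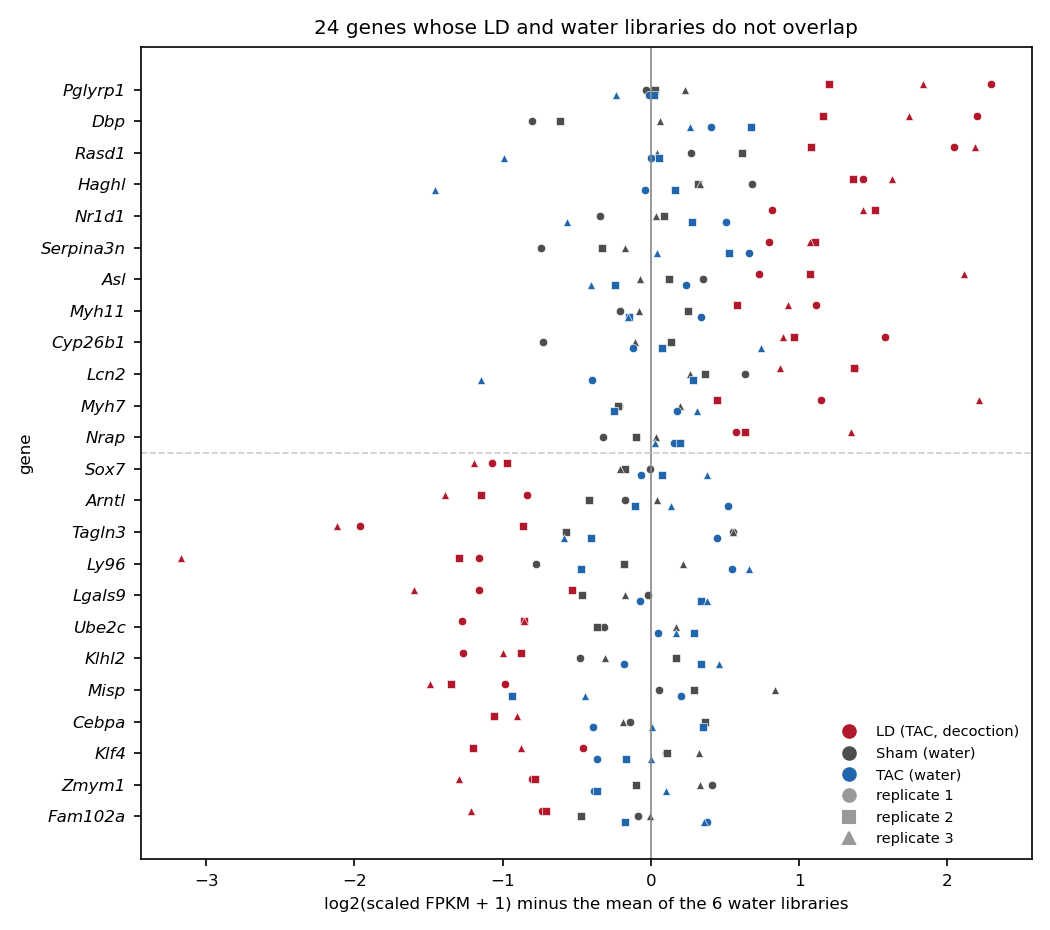
The 24 genes of smallest p whose LD and water libraries did not overlap, 12 higher and 12 lower in LD. The horizontal axis is log2(scaled FPKM + 1) of each library minus the mean of the 6 water libraries, each point is 1 library, colour marks the group and shape the replicate number. Pglyrp1, Dbp and Rasd1 lay furthest to the right and Ly96 and Tagln3 furthest to the left, where LD3 had no fragment of either.

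Clock genes were among the genes furthest apart in both directions. Dbp, a clock output factor, and Nr1d1, which encodes the repressor REV-ERB alpha, were higher in every LD heart than in any water heart. Arntl, which encodes the activator BMAL1, and Nfil3, a repressor that competes with DBP for its sites, were lower in every LD heart. Per1, a repressor of the core loop, was higher on average but overlapped by 1 library: LD2 stood at 14.1 and Sham3 at 14.2 scaled FPKM. These 5 of 20 clock genes tested had an unadjusted p under 0.05, 3 higher and 2 lower, beside 3.68% and 3.72% of all genes.

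Dbp stood at 26.6, 12.4 and 19.0 scaled FPKM in LD1 to LD3, at 2.44, 2.92 and 5.24 in sham hearts and at 6.94, 8.54 and 6.18 in TAC hearts. The LD mean of 19.3 ± 7.08 (SD, n = 3) was 3.595 times the water mean of 5.38 ± 2.36 (SD, n = 6), a log2 difference of 1.70 ± 0.27 (SE, adjusted p = 0.134). It was 1.26 against TAC and 2.15 against sham, so the lowest values were those of the sham hearts and TAC lay between. Nr1d1 stood at 11.2, 18.8 and 17.6 in LD, at 4.44, 6.34 and 6.09 in sham and at 8.81, 7.403 and 3.68 in TAC hearts. Here the water groups overlapped each other, and the log2 difference was 1.25 ± 0.27 (SE, adjusted p = 0.505), with 1.18 against TAC and 1.33 against sham.

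Arntl showed the opposite order, with 3.47, 2.61 and 2.04 scaled FPKM in LD, 6.08, 4.98 and 7.20 in sham and 10.4, 6.43 and 7.77 in TAC hearts. The LD mean of 2.71 ± 0.716 (SD, n = 3) against 7.15 ± 1.87 (SD, n = 6) in water hearts gave a log2 difference of -1.12 ± 0.23 (SE, adjusted p = 0.505), -1.31 against TAC and -0.94 against sham. Nfil3 was lower by less, at 1.58, 1.79 and 2.38 in LD and 2.49 to 3.95 in water hearts, a log2 difference of -0.54. The highest LD value of Nfil3 and the lowest water value, that of TAC3, lay close together. Per1 had a log2 difference of 0.77, with 1.02 against TAC and 0.52 against sham.

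The remaining clock genes did not share one direction. Cry2, a repressor, was above every water library, at 9.07, 8.69 and 7.41 against 2.56 to 7.28 (log2 difference 0.51). Tef, an output factor related to DBP, stood at 38.8 to 47.9 in LD and 20.4 to 43.3 in water hearts, and Clock, the partner of BMAL1, at 2.85 to 5.63 and 4.48 to 9.30, both with overlap. Per2 and Nr1d2, close relatives of Per1 and Nr1d1, had log2 differences of 0.02 and -0.05. The list as a whole had a median of 0.00, 10 members above 0 and 10 below, against 5712 of all 11380 genes above 0. Dbp, Nr1d1 and Arntl kept their direction in all 23 alternative analyses, with log2 differences of 1.36 to 1.98, 0.95 to 1.47 and -1.44 to -0.97. They were picked for lack of overlap, so leaving out libraries could hardly change their direction. With library quality weights their adjusted p was 0.0375, 0.0351 and 0.0375, and over all alternatives it reached 0.9997 for each. With the kind of library as a term in the fit, which sets LD against Sham2 and TAC1, they stood at 1.805, 0.96 and -1.17.

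**Figure D2:**
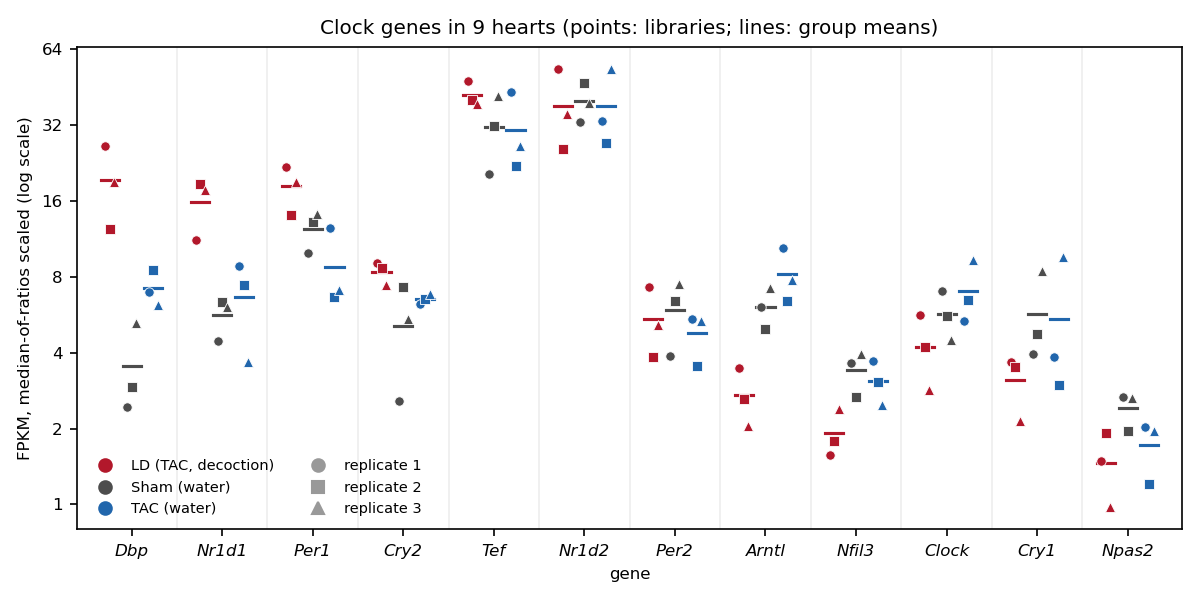
Clock genes in the 9 hearts. The vertical axis is scaled FPKM on a log scale, each point is 1 library and short lines are group means. LD libraries lay above all water libraries for Dbp, Nr1d1 and Cry2 and below all of them for Arntl and Nfil3, while Per2 and Nr1d2 overlapped fully.

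Because clock factors act on short DNA motifs, the promoters of the 5 clock genes were searched on both strands for the E-box CACGTG (bound by CLOCK and BMAL1), the ROR element TAGGTCA (bound by REV-ERB and ROR receptors) and the D-box TTANGTAA (bound by DBP, TEF, HLF and NFIL3). The windows ran from 250 bases before to 50 after each RefSeq start on GRCm38.p6. Over 32851 such promoters of 27025 genes, 7.15% held the E-box, 2.61% the ROR element and 2.32% the D-box. The windows of Dbp and Nr1d1 held none of these letters. Neither did a further window of Per1 (chr11:69099902-69100201) and of Arntl (chr7:113207215-113207514). The 3 windows with a match are shown, with the match in capitals, for Per1 (chr11:69098699-69098998, plus strand, E-box at base 85), Arntl (chr7:113207261-113207560, plus strand, ROR element at base 281) and Nfil3 (chr13:52980990-52981289, minus strand, ROR element at base 239 on the other strand). A match is a description of the sequence only.
Per1: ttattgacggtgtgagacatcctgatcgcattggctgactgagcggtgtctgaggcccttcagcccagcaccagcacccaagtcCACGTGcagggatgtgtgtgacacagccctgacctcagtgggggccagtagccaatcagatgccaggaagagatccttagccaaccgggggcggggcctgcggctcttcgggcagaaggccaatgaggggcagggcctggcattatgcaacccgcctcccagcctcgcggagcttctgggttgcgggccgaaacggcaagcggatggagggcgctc
Arntl: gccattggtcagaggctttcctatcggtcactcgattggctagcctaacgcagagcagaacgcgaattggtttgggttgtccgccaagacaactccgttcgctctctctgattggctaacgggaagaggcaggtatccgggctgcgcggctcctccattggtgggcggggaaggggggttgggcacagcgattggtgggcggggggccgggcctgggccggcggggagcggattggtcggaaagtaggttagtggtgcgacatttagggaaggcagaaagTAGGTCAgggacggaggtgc
Nfil3: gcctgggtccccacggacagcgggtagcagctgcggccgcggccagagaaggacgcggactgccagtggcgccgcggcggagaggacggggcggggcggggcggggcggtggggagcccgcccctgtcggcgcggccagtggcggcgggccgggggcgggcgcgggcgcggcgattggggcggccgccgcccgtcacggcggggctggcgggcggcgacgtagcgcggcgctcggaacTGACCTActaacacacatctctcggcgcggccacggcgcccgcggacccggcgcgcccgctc

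In GENCODE M21 (GRCm38), Dbp lies at chr7:45705088-45710203 and shares exon sequence with Sphk2 on the other strand, and Nr1d1 at chr11:98767932-98775333 overlaps exons of Thra, also on the other strand. Arntl (chr7:113207465-113314126) overlaps the predicted gene Gm45355. The library protocol names no step that marks the strand, so reads from such pairs cannot be told apart. Per1 (chr11:69095217-69109960) has no such neighbour.

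Among the genes above all water libraries were Pglyrp1, Lcn2 and Serpina3n, which encode secreted proteins. Pglyrp1, a peptidoglycan-binding protein of neutrophil granules, was nearly absent from water hearts and stood at 4.79, 1.71 and 3.20 scaled FPKM in LD. It rested on 25, 21 and 30 fragments in LD and on 0 to 4 in each water library, so the water level behind the ratio of means of 17.8 rests on few fragments. Its log2 difference was 1.78 ± 0.28 (SE, adjusted p = 0.134). Lcn2, the siderophore-binding lipocalin, stood at 6.12, 6.06 and 4.004 in LD against 0.234 to 3.24 in water hearts, a log2 difference of 1.21 ± 0.30 (SE, adjusted p = 0.549). Serpina3n, an acute-phase protease inhibitor, stood at 14.6, 18.4 and 17.9 in LD, 4.39, 6.17 and 6.98 in sham and 13.2, 12.0 and 8.27 in TAC hearts, so TAC lay between the other groups.

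Neutrophil markers, a list that includes Lcn2, were higher on balance in LD1 and LD2 but not in LD3. Of 12 such markers, 5 were tested, with a median log2 difference of 0.85 and 4 above 0. Lcn2, S100a8 and Retnlg had an unadjusted p under 0.05, all higher, beside 3.68% of all genes. The list mean was 0.89, 1.38 and -0.06 in LD1 to LD3 and -0.48 to 0.70 in water hearts. The median was above 0 under every alternative that gave one, from 0.46 without LD2 to 1.598 at a pseudocount of 0.1. S100a8, a calcium-binding protein of neutrophil cytosol, stood at 12.3, 10.9 and 2.22 in LD against 0.172 to 4.79 in water hearts, and its partner S100a9 at 3.99, 10.6 and 1.66 against 0.247 to 12.1. LD3 was within the water range for both. The summed marker level was 10.2 to 33.8 in LD and 5.97 to 21.0 in water hearts, and the defining markers Ly6g, Camp and Ngp were at 0 in all 9 libraries. The part of blood or tissue neutrophils in Pglyrp1 and Lcn2 was not tested.

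Other genes above all water libraries had varied roles. Rasd1, a small GTPase first found as dexamethasone-induced, stood at 7.21, 3.21 and 8.07 scaled FPKM in LD and 0 to 2.05 in water hearts, a log2 difference of 1.77 ± 0.32 (SE, adjusted p = 0.264). Asl, which makes arginine from argininosuccinate, stood at 5.29, 6.96 and 15.4 against 1.87 to 3.84, with LD3 more than the other LD hearts. Cyp26b1, which degrades retinoic acid, stood at 9.74, 6.004 and 5.67 against 1.17 to 5.02. Haghl, related to a glyoxalase, was also higher (9.79 ± 1.05 against 3.23 ± 1.601, SD, n = 3 and 6), but shares exons with Narfl on the other strand. Leaving out LD3 and TAC3 together lowered Asl from 1.31 to 0.82.

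Genes below all water libraries included 3 transcription factors known from vessels and myeloid or fat cells. Sox7, an endothelial factor of the SoxF family, stood at 6.31, 6.84 and 5.74 scaled FPKM in LD, 14.3, 12.6 and 12.3 in sham and 13.7, 15.2 and 19.0 in TAC hearts. Its log2 difference of -1.08 ± 0.20 (SE, adjusted p = 0.264) was -1.21 against TAC and -0.95 against sham, and the gap between groups was wider than the range within LD. Klf4, an endothelial factor that responds to flow, stood at 44.5, 26.3 and 33.1 against 47.6 to 77.4, with the 3 sham hearts highest. Cebpa, a factor of myeloid and fat cells, stood at 1.44, 1.43 and 1.71 against 2.86 to 5.53 (log2 difference -1.01 ± 0.24, SE, adjusted p = 0.549).

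The other genes below all water libraries had varied roles. Ly96 encodes MD-2, the partner of Toll-like receptor 4 that binds endotoxin, and stood at 3.03, 2.67 and 0 in LD, 4.25, 6.94 and 9.46 in sham and 12.1, 5.49 and 13.2 in TAC hearts. With no fragment in LD3, its log2 difference was -1.87 ± 0.42 (SE, adjusted p = 0.505) with that library and -1.23 without it. Lgals9, the lectin galectin-9, stood at 6.99, 11.4 and 4.90 against 12.0 to 22.3. Few fragments lay behind Ly96 (14, 29 and 0 in LD, 50 to 88 in water) and Tagln3, an actin-binding protein (1, 29 and 0 against 22 to 122). The same held for Misp, which positions the mitotic spindle (14, 14 and 6 against 30 to 214). Ube2c, a ubiquitin-conjugating enzyme of mitosis, stood at 1.26, 2.03 and 2.03 in LD and at 3.26 to 5.69 in water hearts. It rested on 9, 34 and 26 fragments in LD and on 38 to 80 in water. It overlaps exons of Tnnc2 on the other strand. Klhl2, an adaptor of a ubiquitin ligase, had a log2 difference of -1.05, Zmym1 one of -0.96 and Fam102a one of -0.88. Sox7, Cebpa and Klf4 had adjusted p of 0.0351, 0.0375 and 0.0375 with quality weights, and up to 0.9997 over all alternatives.

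Sarcomere genes were higher on balance in LD hearts, and most of all in LD3. Of 26 tested, 24 were above 0, the median log2 difference was 0.33 (0.36 against TAC and 0.36 against sham) and 6 had an unadjusted p under 0.05, all higher, beside a median of 0.00 and 3.68% higher over all genes. The list mean relative to water was 0.11 in LD1, 0.21 in LD2 and 0.85 in LD3, while the water libraries lay between -0.18 and 0.10, so every LD library was above them. The median was 0.12 without LD3, 0.10 without LD3 and TAC3, 0.20 with FPKM as deposited, 0.10 at equal sums and 0.11 after quantile normalization, and 0.37 with the kind of library in the fit.

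Markers of cardiomyocytes and of skeletal muscle had the same direction. The 14 cardiomyocyte markers had a median log2 difference of 0.25 with 13 above 0, which was 0.08 without LD3 and 0.02 at equal sums. Of 14 skeletal muscle markers 7 were tested, all above 0, with a median of 0.27 and list means of 0.38, 0.48 and 0.67 in LD1 to LD3 against -0.44 to 0.32 in water hearts. Their summed level was 4423 to 6834 scaled FPKM in LD and 3635 to 4632 in water hearts, nearly all of it Ckm, muscle creatine kinase, and Acta1, which heart muscle also makes. Myh1, Myh2 and Myog, a pair of fast myosins and a myogenic factor, were at 0 in all 9 libraries. The part of either marker list in the sarcomere genes was not tested.

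Myh7, the beta-myosin heavy chain of the fetal ventricle, stood at 612, 377 and 1286 scaled FPKM in LD, 238, 236 and 317 in sham and 313, 232 and 342 in TAC hearts. The water groups overlapped each other and each LD heart exceeded them, with LD3 the highest, a separation lost with FPKM as deposited, at equal sums and after quantile normalization. The log2 difference was 1.27 ± 0.32 (SE, adjusted p = 0.549), and 0.80 without LD3. Myh7 (chr14:54970684-54994626) shares exons with the antisense transcript Mhrt, which cannot be told apart from it here. Nrap, a scaffold of growing myofibrils, stood at 133, 139 and 230 against 71.2 to 102, and Myom2, an M-band protein, at 167, 252 and 297 against 84.0 to 162. Csrp3, a Z-disc stress sensor, and Mybpc3, the cardiac myosin-binding protein, had log2 differences of 0.78 and 0.69 with an LD library inside the water range. Myh6, which encodes the fast alpha isoform of the adult ventricle, stood at 3483, 3264 and 6403 in LD and 2208 to 3838 in water hearts.

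Genes of the fetal and stress programme differed mainly from sham hearts. Their median log2 difference was 0.46 against water, 0.13 against TAC and 0.46 against sham, with 17 of 23 above 0 and 6 at an unadjusted p under 0.05, all higher, beside 3.68% of all genes. Acta1, skeletal actin, stood at 640, 598 and 1565 in LD, 123, 191 and 95.6 in sham and 362, 966 and 1320 in TAC hearts. LD and TAC hearts overlapped (log2 difference 0.12) and both exceeded sham (2.68 for LD). Nppa, atrial natriuretic peptide, had log2 differences of 0.36 against TAC and 1.87 against sham, and Nppb, its B-type relative, 0.57 and 1.54. Ankrd1, a stretch-responsive nuclear protein, had 0.59 and 1.69. Myh7, by contrast, was 1.19 from TAC and 1.35 from sham. The median of the list without LD3 was 0.06, and the atrial markers went from 0.26 to -0.06 without it.

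**Figure D3:**
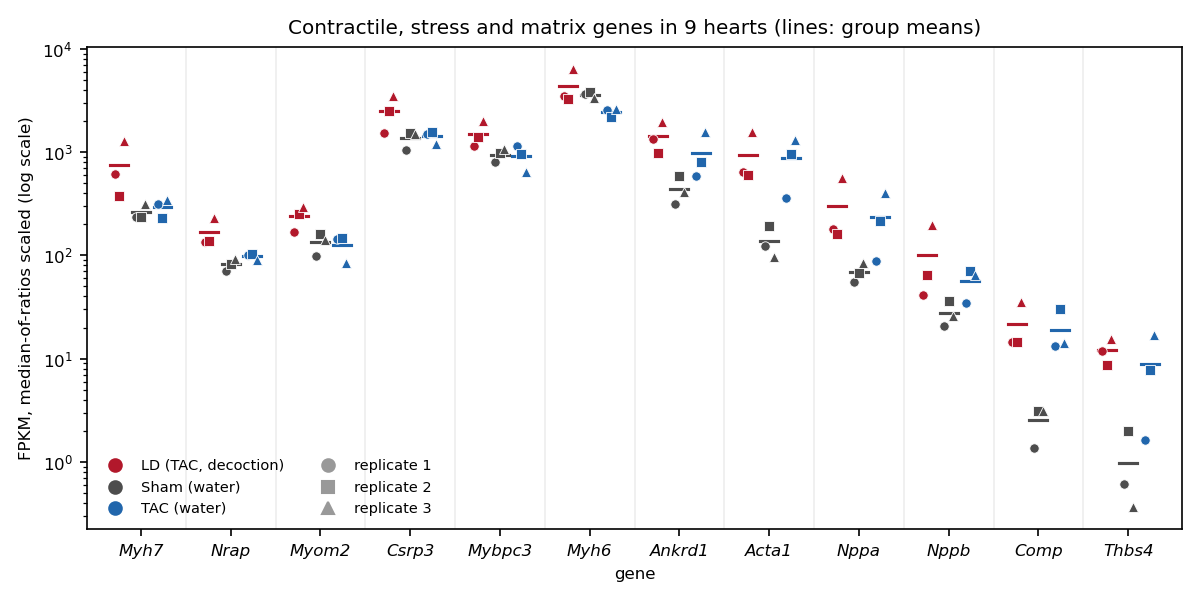
Contractile, stress and matrix genes in the 9 hearts. The vertical axis is scaled FPKM on a log scale, points are libraries and short lines group means. For Myh7, Nrap and Myom2 both water groups lay below LD, whereas for Acta1, Nppa, Comp and Thbs4 LD lay with TAC and above sham.

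Mitochondrial, ribosomal and proteasome genes were higher on balance in LD3, and in LD2 by less, but not in LD1. The median log2 difference was 0.37 for 50 cytosolic ribosomal proteins (48 above 0), 0.23 for 36 genes of respiratory complex I (32 above 0), 0.27 for 40 of complexes II to V (38 above 0), 0.36 for 20 of the tricarboxylic acid cycle (18 above 0) and 0.31 for 31 of the proteasome (23 above 0). In the same order 4, 1, 1, 0 and 2 genes had an unadjusted p under 0.05, all higher, beside 3.68% of all genes. The list means of LD1 were -0.08 to -0.04, those of LD2 0.20 to 0.46 and those of LD3 0.56 to 0.66. Water libraries came near LD2 or above it: Sham2 had 0.27 for complexes II to V, where LD2 had 0.30, and TAC2 had 0.27 for the proteasome, where LD2 had 0.20, and 0.37 for ribosomal proteins. TAC3 had the lowest means among the water libraries for all of these lists except the proteasome, and its mean for ribosomal proteins was -0.63. Short genes had a like order: the 3793 shortest genes had medians of -0.01, 0.17 and 0.25 in LD1 to LD3 and -0.14 in TAC3, and the part of gene length in these lists was not tested. With the kind of library in the fit the 5 medians were 0.25, 0.13, 0.14, 0.18 and 0.19, and the median of complex I was -0.0041 after rescaling to equal sums and -0.0082 after quantile normalization.

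Single members had modest differences. Rps9, a protein of the small ribosomal subunit, stood at 673, 869 and 1277 scaled FPKM in LD and 363 to 781 in water hearts, and Rpl37, of the large subunit, at 376, 471 and 510 against 110 to 416. Ribosomal protein genes have many near-identical pseudogenes, which can take a share of their reads. Psmd4, a ubiquitin receptor of the proteasome, lay above all water libraries at 251, 269 and 296 against 136 to 215 (log2 difference 0.59). Sdhb, the iron-sulphur subunit of succinate dehydrogenase, had a log2 difference of 0.66.

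**Figure D4:**
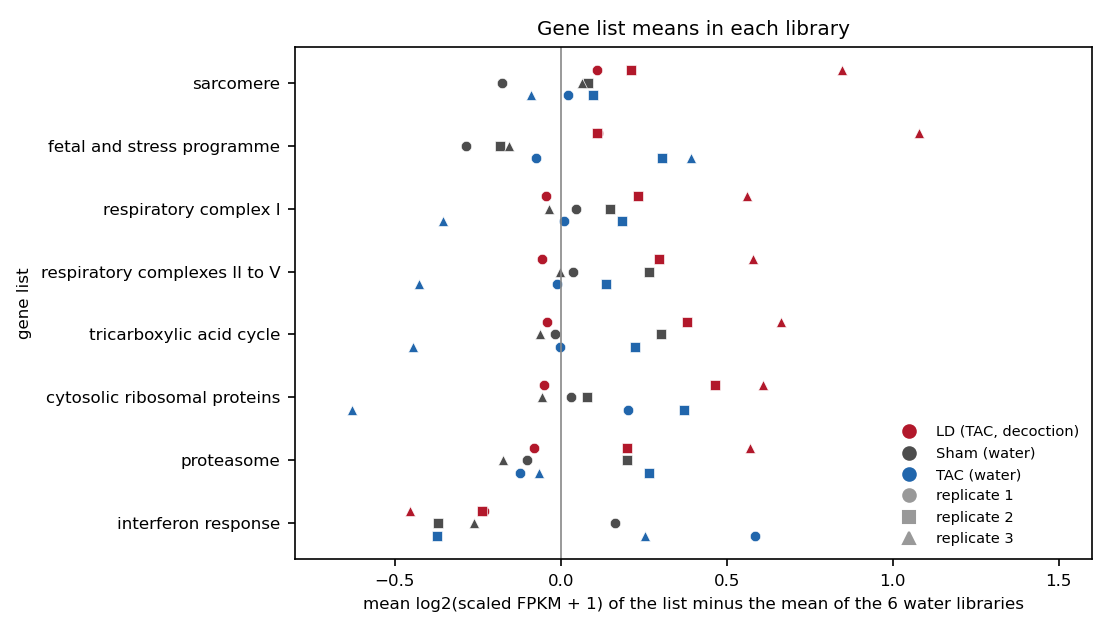
Mean level of 8 gene lists in each library. The horizontal axis is the mean of log2(scaled FPKM + 1) over the tested genes of a list minus the mean of the 6 water libraries, and each point is 1 library. LD3 lay furthest right in the first 7 lists, from 0.56 to 1.08, LD1 lay near 0, and TAC3 lay furthest left in 4 of them.

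Interferon response genes were lower on balance, by median more against TAC than against sham hearts. Of 30 tested, 24 were below 0, with a median of -0.27 against water, -0.46 against TAC and -0.14 against sham, and 3 had an unadjusted p under 0.05, all lower, beside 3.72% of all genes. Ifi44, an interferon-induced protein, stood at 0.763, 3.15 and 0.5 in LD and 2.53 to 8.20 in water hearts (log2 difference -1.34 ± 0.36, SE, adjusted p = 0.568). Ddx58, which encodes the RNA sensor RIG-I, lay below all water libraries at 4.88, 5.53 and 2.72 against 5.60 to 9.42. Ifit1, which binds foreign RNA, was at 4.53 to 7.03 in LD, but the water libraries ran from 5.07 to 25.7 with the highest values in TAC1 and TAC3. The list means were -0.23, -0.24 and -0.45 in LD1 to LD3 and 0.58, -0.37 and 0.25 in TAC1 to TAC3. Sham hearts had 0.16, -0.37 and -0.26. Only LD3 lay below all water libraries, and TAC2 and Sham2 lay below LD1 and LD2. The median was -0.11 with library quality weights, -0.14 without LD3 and TAC3, -0.15 without TAC1, -0.40 with the kind of library in the fit and -0.48 at equal sums.

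Chemokines and macrophage genes gave a mixed picture. The median over 14 chemokines and cytokines was -0.30, and -0.05 without LD3. Ccl2 and Ccl7, which attract monocytes, stood at 0 to 3.17 and 0.163 to 1.11 in LD against 1.73 to 5.21 and 0.971 to 4.99 in water hearts, and Il34, a ligand of the macrophage growth factor receptor, at 1.46 to 2.77 against 2.29 to 6.65. Cx3cl1, the membrane-bound chemokine fractalkine, was higher, with a log2 difference of 0.70. The 20 macrophage markers had a median of 0.01, and their summed level of 318 to 521 in LD matched 307 to 523 in water hearts. Within that list 10 markers were above 0 and 10 below. Trem2, a lipid receptor of macrophages, stood at 10.4, 14.7 and 21.9 against 2.96 to 10.5 (log2 difference 1.21 ± 0.35, SE, adjusted p = 0.658), and Pf4 at 2.0, 0.709 and 7.85 against 0.174 to 2.38. Cd14 and Lyve1, of the same list, were lower, with log2 differences of -0.55 and -0.52.

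Among vessel genes, Myh11 and Tagln lay above all water libraries, and they were the 2 of 17 smooth muscle and pericyte markers with an unadjusted p under 0.05, beside 3.68% of all genes. Myh11, smooth muscle myosin, stood at 41.6, 28.5 and 36.4 scaled FPKM in LD and 16.04 to 23.9 in water hearts, a log2 difference of 0.87 ± 0.22 (SE, adjusted p = 0.549), 0.86 against TAC and 0.89 against sham. With the kind of library in the fit it was 0.58. Tagln, transgelin, stood at 194, 145 and 161 against 54.4 to 134, whereas Mylk, myosin light chain kinase, had a log2 difference of -0.46 and Acta2 one of 0.37. The 17 markers of smooth muscle and pericytes had a median of 0.18 (12 above 0), which turned to -0.04 after rescaling to equal sums. Their summed level was 1563 to 2463 in LD and 1363 to 1772 in water hearts, and its part in Myh11 was not tested.

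The 19 endothelial markers had a median log2 difference of 0.03, with 10 above 0 and 9 below. Their summed level was 4676 to 6069 in LD and 4174 to 5232 in water hearts. Eng and Sox18, an endothelial TGF-beta co-receptor and a SoxF factor, were nonetheless below all water libraries. They were 2 of 19 markers, beside 1.66% of all genes, and no marker lay above all water libraries. Eng stood at 127, 132 and 107 against 145 to 204 (log2 difference -0.54), and Sox18 at 52.4, 57.9 and 42.0 against 60.5 to 79.1 (-0.48). The third SoxF gene, Sox17, overlapped (log2 difference -0.41). Hey1, a Notch target of arterial endothelium, stood at 13.7, 9.75 and 4.39 against 10.8 to 25.7, a log2 difference of -0.99 that was -0.58 without LD3 and -1.36 with the kind of library in the fit. The VEGF, angiopoietin and Notch list had a median of -0.07, with 10 above 0 and 12 below. Its member Vegfc was higher, with a log2 difference of 0.68.

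Hypoxia-responsive genes had a median of -0.04, and 4 of 22 had an unadjusted p under 0.05, all lower, beside 3.72% of all genes. P4ha1, a collagen prolyl hydroxylase subunit, stood at 8.18, 12.5 and 12.8 in LD and 13.8 to 22.0 in water hearts, below all of them. Egln3, an oxygen-sensing hydroxylase, stood at 3.24 to 5.38 against 4.99 to 11.6, Mxi1, a MYC antagonist, at 5.01 to 7.57 against 5.72 to 12.2, and Ankrd37 below all water libraries at 1.47 to 4.95 against 5.08 to 18.7.

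Matrix genes lay, by list median, below TAC and above sham hearts. The median over 43 fibrillar matrix genes was 0.04 against water, made up of -0.38 against TAC and 0.39 against sham, and the 17 myofibroblast markers had 0.31, -0.22 and 0.85. With the kind of library in the fit, which sets LD against Sham2 and TAC1, the medians were 0.32 and 0.53. At an unadjusted p under 0.05 in limma's test against water, 5 fibrillar matrix genes were higher and 2 lower. Of the myofibroblast markers 5 were higher and 0 lower, beside 3.68% and 3.72% of all genes. Comp, a cartilage matrix protein, stood at 14.6, 14.4 and 35.3 in LD, 1.35, 3.09 and 3.12 in sham and 13.3, 30.04 and 14.1 in TAC hearts. Thbs4, a thrombospondin of the loaded heart, stood at 11.9, 8.77 and 15.5 in LD, 0.364 to 1.98 in sham and 1.64, 7.82 and 17.1 in TAC hearts, and Wisp2, a secreted CCN protein, had log2 differences of 0.17 against TAC and 1.92 against sham. Postn, periostin, was 25.3, 15.1 and 45.4 in LD against 7.43 to 41.1 in 5 water hearts and 174 in TAC3. Its log2 difference of 0.21 ± 0.62 (SE, adjusted p = 0.932) changed sign with the scaling and with left-out libraries.

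Regulators of the TGF-beta pathway were among the lower genes, while the list median was -0.05. Skil and Tgif1, repressors of SMAD-driven transcription, and Smad6, an inhibitory SMAD, had log2 differences of -0.74, -0.85 and -0.79. Skil stood at 3.64, 2.41 and 3.16 in LD and 4.204 to 7.52 in water hearts, and Smad6 at 5.79, 3.74 and 4.87 against 6.90 to 15.2, both without overlap.

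**Figure D5:**
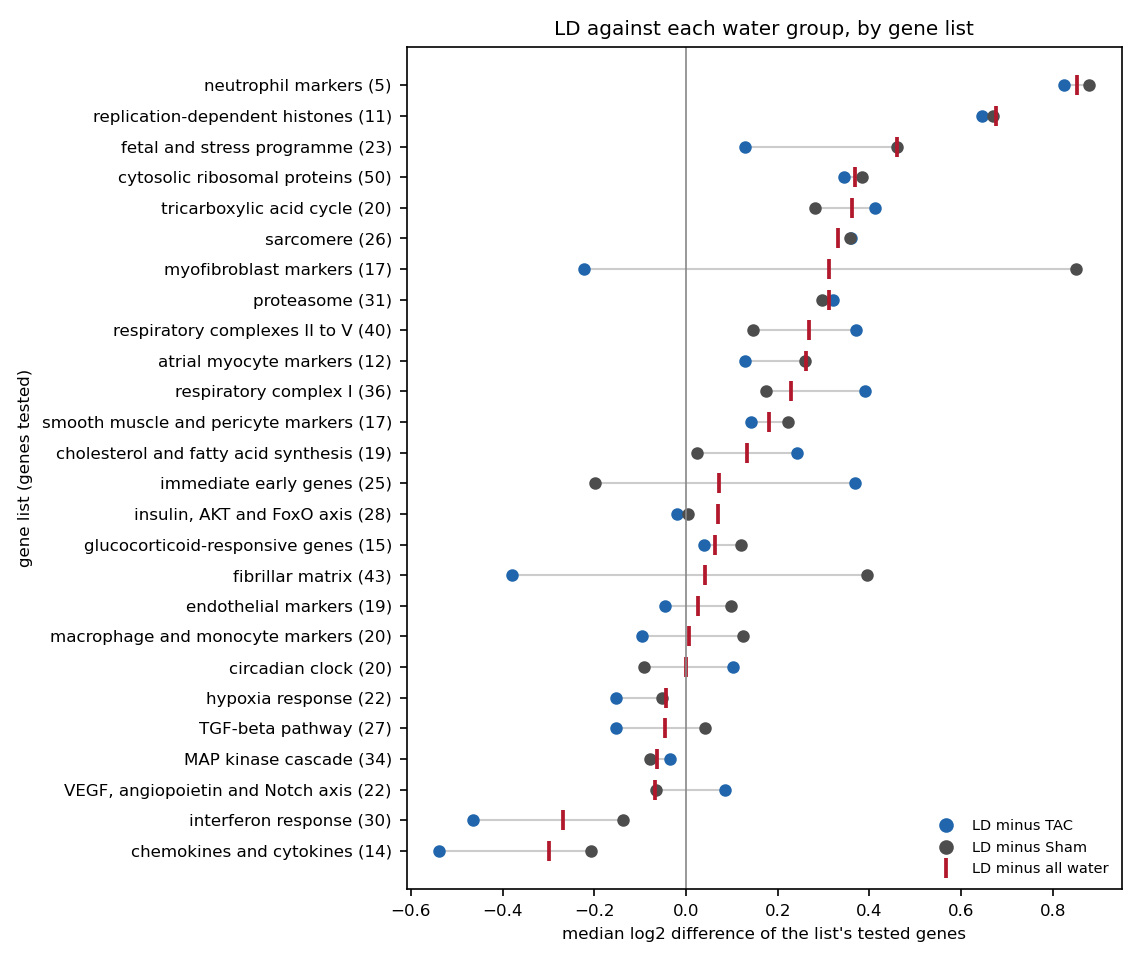
Median log2 difference of 26 gene lists for LD against TAC (blue), against sham (grey) and against all water hearts (red bar), with the number of genes tested in brackets. Sarcomere, ribosomal, proteasome and histone lists lay on the same side of 0 against both water groups, whereas the fibrillar matrix, myofibroblast and immediate early lists lay on opposite sides.

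The study's title names the MAP kinase and AKT pathways. Of 34 MAP kinase cascade genes, the median log2 difference was -0.06 and 1 had an unadjusted p under 0.05: Nras, a small GTPase upstream of the kinases, at 25.9, 16.2 and 15.2 in LD against 23.03 to 39.3 in water hearts. The kinases Mapk3, Mapk8 and Mapk9 had log2 differences of -0.12, -0.09 and 0.14. Of 28 genes of the insulin, AKT and FoxO axis, the median was 0.07 and 1 had an unadjusted p under 0.05: Pik3ca, the catalytic subunit of phosphoinositide 3-kinase, at 12.0, 8.67 and 4.96 against 10.7 to 14.6. Both genes were lower, and 1 of 34 and 1 of 28 are near the 3.72% of all genes that were lower. Akt1 had a log2 difference of 0.39 and Akt2 one of 0.18. These are RNA levels, and phosphorylation was not measured.

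Immediate early genes had a median of 0.37 against TAC and -0.20 against sham, but the LD libraries did not share a level. The list mean was 0.39, -0.29 and 0.18 in LD1 to LD3. It was 0.39, 0.18 and 0.15 in sham and -0.44, -0.01 and -0.27 in TAC hearts, so LD spread over most of the water range. Of 25 tested, 5 were higher and 2 lower at an unadjusted p under 0.05 in limma's test, beside 3.68% and 3.72% of all genes. Against all water hearts the median was 0.07, but -0.23 with library quality weights and -0.12 without LD1. Cyr61, a secreted CCN protein, lay above all water libraries at 64.6, 48.7 and 62.7 against 24.5 to 44.0, and another member lay below all of them. Zfp36, which destabilizes messenger RNAs, and Junb, an AP-1 subunit, overlapped (log2 differences 0.67 and 0.73). Glucocorticoid-responsive genes had a median of 0.06 and went both ways. Pdk4, an inhibitor of glucose oxidation, was below all water libraries at 300.5, 280.2 and 356 against 369 to 628, and Zbtb16, a glucocorticoid-induced factor, had a log2 difference of -0.72, whereas Per1 and Lcn2, members of the same list, were higher. Genes of cholesterol and fatty acid synthesis had a median of 0.13, with 11 of 19 above 0 and 8 below. Fdps and Fdft1, enzymes of the mevalonate and sterol branch, had log2 differences of 0.86 and 0.52. The list median was -0.02 after rescaling to equal sums and with library quality weights. It was 0.01 without LD3 and -0.07 without LD3 and TAC3.

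Replication-dependent histone genes had a list median of 0.68 over the 11 of 28 that were tested, with 4 higher and 1 lower at an unadjusted p under 0.05, beside 3.68% and 3.72% of all genes. Most such messages lack poly-A tails and the libraries were selected with poly-T beads, and the part of that selection in these values was not tested. Hist1h1c, a linker histone, stood at 56.7, 34.9 and 36.9 in LD and 8.47 to 40.4 in water hearts. Hist1h4d stood at 10.99, 1.66 and 15.4 in LD and at 0 in 4 water libraries, with 4.58 in Sham2. The list mean was 0.79, 0.15 and 1.25 in LD1 to LD3, and near-identical copies make the share of each gene uncertain. The median was 0.30 without LD3 and 0.19 without LD3 and TAC3. Over all alternatives it ran from 0.07 with library quality weights to 1.12 at a pseudocount of 0.1.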

How the data were processed

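RNA sequencing of whole heart tissue was compared between 3 LD and 6 water libraries, grouped by the sample titles. Per the submitters' processing notes, the tools were HISAT2 2.1.0, Cufflinks 2.2.1, HTSeq 0.7.2, DESeq, CASAVA 1.8 and fastp 0.20.0, on GRCm38. No label or header names the annotation or the tool behind each value. FPKM values were deposited for 21989 gene symbols. Whole fragment counts (tolerance 0.001) were recovered for all 16262 detected genes, which gave the library totals and the fragments behind low values. Such counts limit counting error only, and PCR copies were not marked.

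FPKM were divided by median-of-ratios size factors, genes under 1 FPKM in more than 6 libraries were dropped, and log2(value + 1) was fitted with limma 3.58.1 in R 4.3.3. The fit had 1 mean per group, 6 residual degrees of freedom, a trend and two-sided moderated tests. The contrast was LD minus the mean of the Sham and TAC means. The pseudocount makes log2 differences of low genes smaller than their true ratio. Errors are limma's standard errors or SDs over mice. The labels speak of 3 biological repeats. The fit was tested on simulated data with independent normal spread per gene, without outlying libraries or kinds of library.

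Genes named are the 12 of smallest p in each direction without overlap (none passed the threshold, mean FPKM of at least 1, predicted genes counted but not named), plus the 4 leading members by p in each described list and defining markers. Further members are given for their role. Members and lists were chosen with earlier results of these data known. Alternatives changed the scaling, pseudocount, filter, fit and weights, and left out libraries. The kind of library by odd counts was added after seeing the data. Its term in the fit and the setting with 5 libraries both rest on Sham2 and TAC1, so they are not separate checks. Promoters and motif shares come from RefSeq (GRCm38.p6), positions from GENCODE M21. Some members are not reported here.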

Additional observations from a re-analysis of the deposited data

Results flagged for a closer look

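In the 6 water libraries of 114 named genes, 1 library stood far from the other 5 for 11 genes. Chance flags about 1 in 20 such groups, so some of these are no more than that. TAC3 was the library apart for 6 genes. It held the highest Nr2f2 (8.35 scaled FPKM against 6.06 to 6.88 in the other water libraries), Pf4 (2.38 against 0.174 to 0.901), Ankrd37 (18.7 against 5.08 to 9.47), Nras (39.3 against 23.03 to 28.9) and Postn (174 against 7.43 to 41.1), and the lowest Stard10 (17.8 against 48.1 to 52.7). Sham2 held the highest Ndufs1 (81.3 against 41.7 to 53.5) and Hist1h4d (4.58 against 0 to 0.543). Single libraries also held the highest S100a9 (12.1 in TAC2 against 0.247 to 3.93), Hist1h1e (9.07 in TAC1 against 0 to 0.169) and Hist2h4 (9.45 in Sham3 against 0 to 1.87).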

How the results depend on the processing

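The count of genes past the adjusted threshold stayed at 0 under most of the 23 alternatives. It was 16 with library quality weights and 0 to 1 when 1 library was left out: Hist1h1e without TAC1 (log2 difference 2.23, adjusted p = 0.0176) and Cox20 without TAC2 (-2.19, adjusted p = 0.0143), both in limma's test. The 842 genes with an unadjusted p under 0.05 became 2116 with quality weights, 367 (without LD3) to 1343 (without LD1) with 1 library left out, 431 without LD3 and TAC3 together, 300 with the kind of library in the fit and 323 over LD1 to LD3, Sham2 and TAC1 only, where Sham and TAC had 1 library each and are assumed to vary like LD. Genes above all water libraries numbered 97 as deposited, 54 at equal sums, 236 to 856 with 1 library left out (the highest without LD1), 426 without LD3 and TAC3 and 959 over the 5 libraries. Genes below numbered 287, 346, 245 to 774, 429 and 962. The last 3 settings hold fewer libraries. Postn changed sign at equal sums (-0.014) and with quality weights (-0.26), and ran from -0.18 (without LD3) to 0.79 (without TAC3) with 1 library left out, below 0 also without Sham2 or Sham3. The other 113 named genes kept their direction. For those picked for lack of overlap, leaving out libraries could hardly change it. A pseudocount of 0.1 put Pglyrp1 at 3.59, Rasd1 at 2.72, Tagln3 at -3.41, Ly96 at -3.07 and Misp at -2.45. Of 1262 list medians under alternatives, 163 moved by more than the SD over the LD libraries. A replicate block left 0 genes past the threshold and 684 at an unadjusted p under 0.05. Libraries of the same number did not deviate together (correlations of -0.24 to 0.15), so the numbers were not taken as pairs. With 3 LD hearts, 7.41 M fragments in LD1 and low counts for genes such as Pglyrp1, Tagln3, Misp, Ly96 and Ube2c, small differences were not detectable.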

Other observations

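Several gene lists were not described above. Genes of branched-chain amino acid and ketone catabolism had a median log2 difference of 0.29 (15 of 22 above 0), those of glucose uptake and glycolysis 0.27 (22 of 27), those of fatty acid oxidation 0.23 (21 of 28) and mitochondrial ribosomal proteins 0.29 (34 of 41). Each of these was at most 0.11 without LD3. Of 25 genes of the unfolded protein response, 18 were below 0, with a median of -0.10. Of 7 genes of antigen presentation tested, 6 were above 0, with a median of 0.37 and list means of 0.37, 0.07 and 0.48 in LD1 to LD3 against -0.23 to 0.35 in water hearts. The 8 erythroid markers tested had a median of -0.31, -0.96 against TAC and 0.25 against sham, with TAC2 the highest library at a list mean of 1.87, and the 4 lymphatic endothelial markers tested one of -0.37, with none above 0. The 19 calcium handling genes had a median of -0.09 and the 23 ion channel genes one of -0.07.

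Cox20, an assembly factor of cytochrome c oxidase, was chosen after its values were seen and fell into separate levels. It stood at 0.665, 0.315 and 0.864 scaled FPKM in LD1 to LD3, 0.324 in TAC1 and 0.905 in TAC3, and at 23.02, 18.8, 16.4 and 23.7 in Sham1, Sham2, Sham3 and TAC2. No library lay between.

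Genes called with quality weights that the rule did not name, also chosen after their values were seen, included Coro1b, an actin regulator, with a log2 difference of 2.29 under weights (adjusted p = 0.0351 in limma's test), Gstt2, a glutathione transferase, with 1.11, Aldh1l1, a folate enzyme, with 1.43, and Tnfrsf25, a death receptor of T cells, with -1.34.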
